A study of Homo sapiens with 16 samples.

Results

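The sites described here are 79 pseudouridine sites listed in 53 protein-coding genes of protein folding and protein breakdown. They come from 13398 sites in a map of HEK293T cells that its authors label as pre-mRNA. Of these 13398 sites, 10559 were assigned to protein-coding genes. Members were chosen by gene symbol alone. Symbols starting with HSPA, HSPB, HSPD, HSPE, HSPH, HSP90, DNAJ or CCT followed by a digit gave 50 chaperone sites in 35 genes, and symbols from PSMA to PSMG gave 29 proteasome sites in 18 genes. The rule itself uses no measured value. Some symbols carry the prefix without the role. HSPBAP1 encodes a protein that associates with a small heat shock protein, PSME3IP1 a partner of a proteasome activator, and DNAJC25-GNG10 a readthrough of a J protein gene and a G protein subunit gene. HSPB11 stands in RefSeq as IFT25, a component of intraflagellar transport.

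Chaperones bind unfolded protein. HSP70 proteins hold and release short stretches under the control of J proteins, which start the ATP cycle, and of HSP110 proteins, which exchange the nucleotide. HSP90 acts late in the folding of many signalling proteins, and chaperonins such as CCT enclose a whole protein in a chamber. The proteasome takes over what is to be destroyed: a 19S cap recognises and unfolds ubiquitin-tagged protein and feeds it to the 20S core, whose beta subunits cut it. HEK293T is a transformed line from human embryonic kidney.

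The assay, PRAISE-seq, treats RNA with bisulfite so that pseudouridine, an isomer of uridine, is skipped in reverse transcription and shows as a deletion in part of the reads. The 16 libraries of the series are 2 bisulfite-treated control, 2 nontreated control, 3 treated PUS-TKO and 3 further PUS-TKO libraries of HEK293T, and 3 treated and 3 input libraries of the HuCCT1 line. PUS-TKO cells lack PUS1, PUS7 and RPUSD4, all of them pseudouridine synthases. The site table holds 1 deletion level per site and no value per library, so controls and knockout could not be compared and no level carries a replicate error. Intervals are 95% Clopper-Pearson intervals of the deletion reads in the covering reads. They cover counting error only, and it is not known here whether PCR copies of the same molecule count as separate reads. A range given after the reads of a site is this interval.

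The contexts of the member sites above 28% are shown first, except that of HSPA5 at 33.3%, which is shown further on with the sites opposite to their gene. Each is the deposited 11-base context of a site on hg38, 5′ to 3′ on the strand of the site and written as DNA. The capital T is the listed uridine, and longer capitals mark a synthase motif that holds it.
HSPA9, exon, chr5:138567521-138567531, minus strand: ctgaaTgtgct
PSMA2, intron, chr7:42931331-42931341, minus strand: aaaaaTtgact
PSMD14, intron, chr2:161340475-161340485, plus strand: ttaTCTAAggt
PSMG1, intron, chr21:39179791-39179801, minus strand: atttcTtttgg
DNAJB14, intron, chr4:99925970-99925980, minus strand: gatggTaagaa
DNAJC17, intron, chr15:40789636-40789646, minus strand: agtggTtctgg
DNAJC24, intron, chr11:31411105-31411115, plus strand: tctTTTAGgat
HSPA4, intron, chr5:133092685-133092695, plus strand: tgaccTgtttt

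HSPA9, the mitochondrial HSP70, had the highest level of all member sites, with 48.0% (12 of 25 reads, interval 27.8 to 68.7%) in an exon. Among the other HSP70 and HSP110 genes, HSPA4, a nucleotide exchange factor, reached 28.6% at an intronic site (8 of 28 reads, interval 13.2 to 48.7%). HSPA5, the HSP70 of the endoplasmic reticulum, had 33.3% (5 of 15 reads, interval 11.8 to 61.6%), but on the strand opposite to the gene. These 3 intervals lay wholly above the 5% minimum that all listed sites obey. The other 6 sites of the group did not clear it: HSPH1 had 16.7% in an intron (3 of 18 reads) and 6.2% near its end, HSPA4L 5.9% and 6.1%, HSPA14 6.4% and HSPA1B 5.0%. The site of HSPA14 also lies within MSANTD7, a protein-coding gene on the strand of the site. HSPA1B is nearly identical to HSPA1A, so its reads could have come from either gene.

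The 2 listed HSP90 sites had few covering reads. HSP90B1, the form of the endoplasmic reticulum, had an intronic site at 12.5% (3 of 24 reads; 2.66 to 32.4%). HSP90AA1, the stress-inducible cytosolic form, had 20% (3 of 15 reads, interval 4.33 to 48.1%) at a site annotated as promoter, on the opposite strand. Region names are those of the deposited table and follow the transcript it lists, so a promoter site can lie far inside the gene: in RefSeq that of HSP90AA1 lay at 88.6% of the length of the gene. HSP90AB1, the constitutive form, had no listed site.

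The chaperonins held 13 sites in 6 genes, at a median level of 10.0%. CCT2, a subunit of the chamber that folds actin and tubulin, held 4, the most of any chaperone gene. Its intronic sites had 8.5% (4 of 47 reads) and 25% (4 of 16 reads, interval 7.27 to 52.4%), and its 2 exonic sites, 27 bases apart and both on the opposite strand, had 16.7% and 20% with 3 reads each. CCT3 held 3 sites, at 6.8% and 7.5% in introns and 10.0% at a site annotated as promoter. CCT6A had the most deletion reads of the group, with 9.5% (8 of 84 reads, interval 4.20 to 17.9%) at a site annotated as promoter, although it lies 10915 and 1309 bases from the ends of the gene, and 11.1% in an exon (4 of 36 reads). CCT5 had 17.6% and CCT7 5.6%, each from 3 reads. HSPD1, the mitochondrial chaperonin, had 12% in an intron (3 of 25 reads) and 6.2% in an exon (4 of 64 reads). Only the 25% site of CCT2 had an interval above the listing minimum.

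J protein genes held 23 of the chaperone sites, 18 of them in the C class, whose members share little beyond the J domain. DNAJB14, a membrane protein of the endoplasmic reticulum, had 2 well supported intronic sites, at 33.3% (7 of 21 reads, interval 14.6 to 57.0%) and 18.8% (6 of 32 reads, interval 7.21 to 36.4%). DNAJC17, a nuclear J protein, had 33.3% (7 of 21 reads) and DNAJC24, which takes part in diphthamide synthesis, 33.3% (5 of 15 reads, interval 11.8 to 61.6%), both in introns. DNAJC13, an endosomal protein, held 3 intronic sites. Neighbouring bases at positions 132486029 and 132486030 of chromosome 3 were both listed at 23.5% with 4 of 17 reads, and the third site had 17.6%. DNAJC7, which binds HSP70 and HSP90, had a 3′UTR site at 22.2% (4 of 18 reads, with an interval of 6.41 to 47.6%) and 6.2% 208 bases away near the transcript end (9 of 146 reads, interval 2.86 to 11.4%). The intervals overlap, which is no test, and differences between sites of 1 gene were not tested.

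J protein sites with more than 50 reads had levels under 10%. DNAJB4 had 5.2% in its 3′UTR (6 of 115 reads), DNAJC8, a spliceosome-associated protein, 6.1% (5 of 82 reads), DNAJB5 8.8% in an exon (6 of 68 reads) and DNAJA1, a cytosolic partner of HSP70, 8.6% (5 of 58 reads) on the opposite strand. DNAJC25-GNG10 had 9.8% in an intron (6 of 61 reads), at a position that also lies within DNAJC25. The remaining J protein sites, in DNAJC6, DNAJC9, DNAJC10, DNAJC11, DNAJC19, DNAJC21, DNAJC22 and DNAJC30, ranged from 5.6% in DNAJC30 to 15.8% in DNAJC9, a histone chaperone, on 3 or 4 reads each. The sites of DNAJC30 and DNAJC19, both mitochondrial, lay outside the RefSeq extent of these genes, and that of DNAJC19 lay within FXR1 on the other strand. The genes placed with the small heat shock proteins by their prefix, HSPB11 and HSPBAP1, had 12%, 20% and 6.8%, again on 3 reads each, and no classical member of that family was listed.

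**Figure D1:**
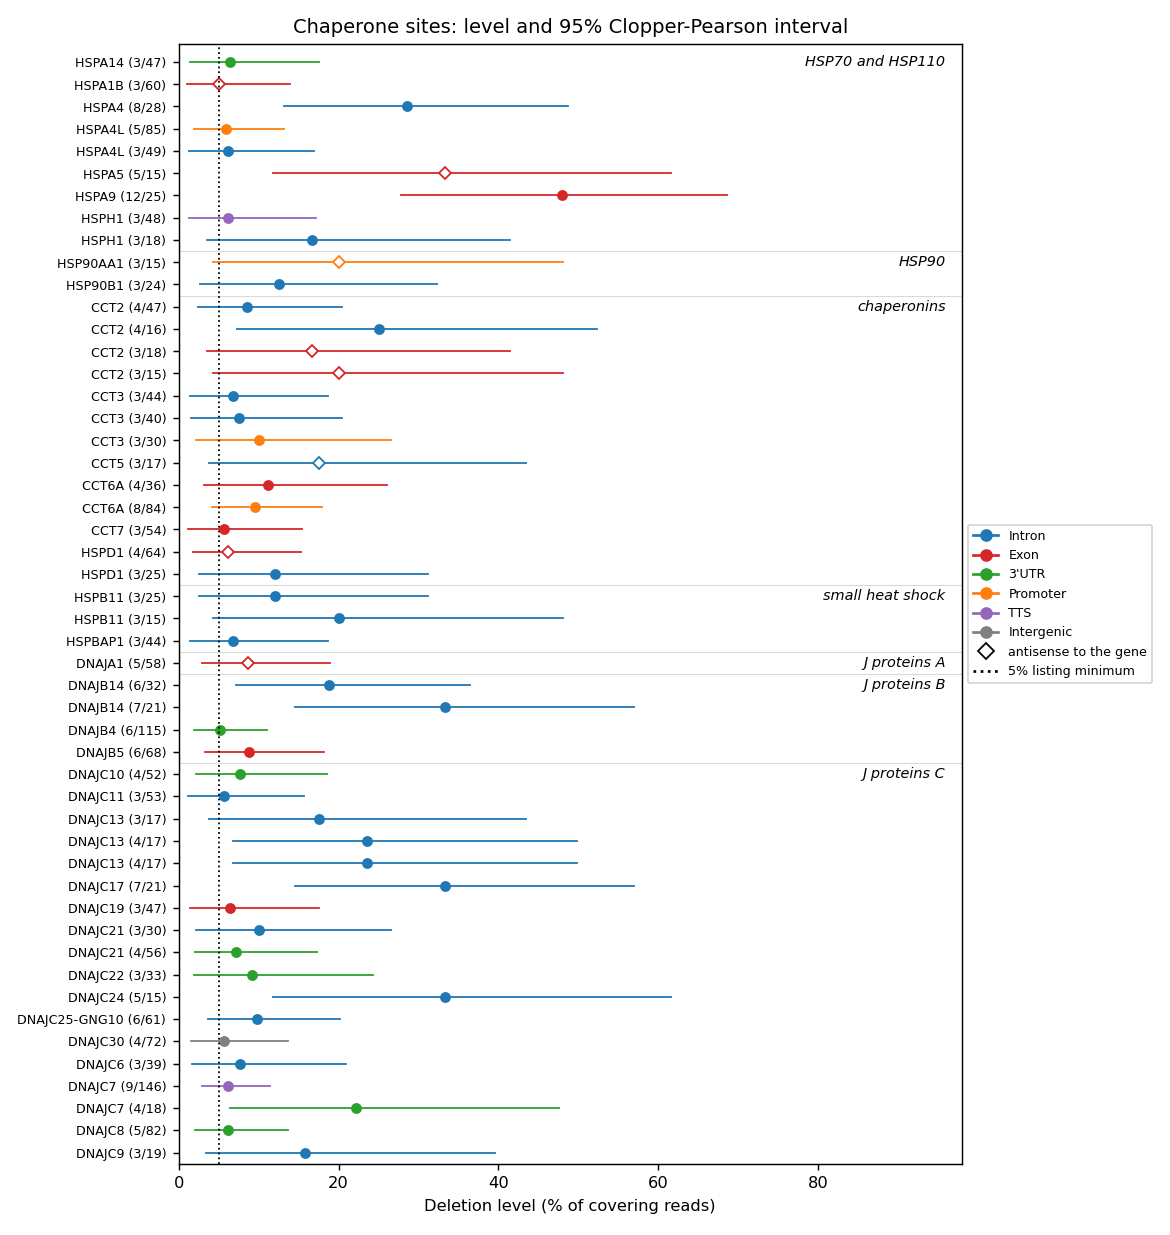
Deletion level in percent of covering reads (points) with 95% Clopper-Pearson intervals (lines) for the 50 chaperone sites, grouped by role, with deletion reads and coverage after each gene name. Colours give the annotated region, open diamonds sites opposite to the gene, and the dotted line the 5% listing minimum, which 11 intervals clear, that of HSPA9 by the widest margin.

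In the proteasome, the 20S alpha ring held 9 sites in 4 genes. PSMA2 had an intronic site at 46.7% (7 of 15 reads; 21.3 to 73.4%), the highest level of the family. PSMA1 held 4 intronic sites, at 16.7% (6 of 36 reads), 18.2% (4 of 22 reads), 8.1% and 8.3%, the last 2 only 3 bases apart. PSMA4 held 3 sites within the first 20% of its length, at 23.8% (5 of 21 reads, interval 8.22 to 47.2%) and 11.8% (6 of 51 reads) in introns and 5.1% (4 of 79 reads) at a site annotated as promoter. PSMA5 had 12.5% in an intron (3 of 24 reads).

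Among the 20S beta subunits, PSMB2 gave the largest number of deletion reads of all member sites. Neighbouring uridines near its transcript end, at positions 35599638 and 35599639 of chromosome 1, had 9.3% (15 of 162 reads, interval 5.28 to 14.8%) and 9.0% (15 of 166 reads, interval 5.15 to 14.5%). An intronic site of PSMB2 had 20% (3 of 15 reads). PSMB6 and PSMB7, which are catalytic, had 7.1% in an exon (8 of 113 reads, interval 3.11 to 13.5%) and 11.5% in an intron (3 of 26 reads).

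The neighbouring pair of PSMB2 is shown because both sites fall in 1 run of 3 uridines, where a deletion cannot be assigned to a single base.
PSMB2, chr1:35599634-35599644, minus strand: aattcTttgat
PSMB2, chr1:35599633-35599643, minus strand: attctTtgatt

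In the 19S cap, PSMD14, the deubiquitinase that strips ubiquitin from substrates, had an intronic site at 36.8% (7 of 19 reads, interval 16.3 to 61.6%). That position also lies within the pseudogene MXRA7P1, and which locus the reads came from was not tested. The 2 other intronic sites of PSMD14 had 6.8% (3 of 44 reads, interval 1.43 to 18.7%) and 6.4% (3 of 47 reads). The difference to the nearer one was 30.0 points, with intervals that still overlap. PSMD11, a structural subunit, had an intronic site at 25% (5 of 20 reads; 8.66 to 49.1%). The exonic sites were lower where they were deep: PSMD4, a ubiquitin receptor, had 6.8% (6 of 88 reads), PSMD13 5.9% (6 of 101 reads) and PSMD1, a scaffold subunit, 16.7% (3 of 18 reads). PSMC6, an ATPase that helps to unfold substrates, was the 1 gene listed of 7 with the PSMC prefix, at 9.1% (3 of 33 reads) and, on the opposite strand, at 18.8% (3 of 16 reads).

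Outside the core and the cap, PSMG1 and PSMG2 form the dimer that helps to assemble the alpha ring. PSMG1 had an intronic site at 36.8% (7 of 19 reads; 16.3 to 61.6%), and PSMG2 had 17.6% and 12.5% from 3 reads each. PSMF1, an inhibitor, had 12.9% (4 of 31 reads), PSME4, an activator, 7.5% (3 of 40 reads) and PSME3IP1 5.2% (9 of 172 reads, interval 2.42 to 9.70%) at a site annotated as promoter that lies at 33.5% of the length of the gene.

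**Figure D2:**
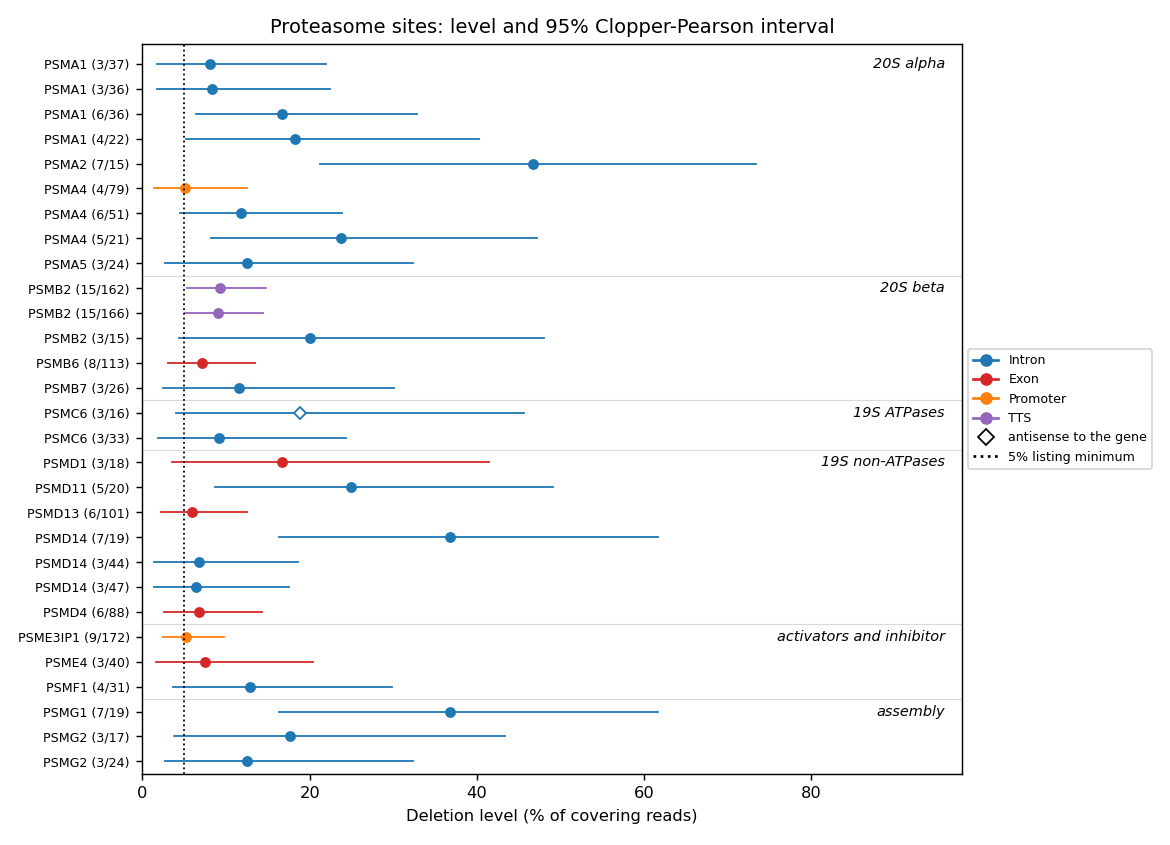
The same display for the 29 proteasome sites. PSMA2, PSMD14 and PSMG1 have the highest levels, on 15 to 19 reads, and the pair of PSMB2 sites has the most deletion reads at levels of 9.0 and 9.3%.

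The median was 9.9% over the chaperone sites (interval of the median 7.7 to 16.7%) and 11.8% over the proteasome sites (8.1 to 17.6%), beside 12% over all protein-coding sites. Intervals wholly above the listing minimum were found at 11 of 50 chaperone sites (22%) and 9 of 29 proteasome sites (31%), where protein-coding sites gave 28.8% and all sites 29.8%. With Wilson intervals, which are shorter at low counts, 19 and 15 sites cleared it, beside 46.3% of protein-coding sites, and with 99% intervals 7 and 5, beside 16.7%. The neighbouring bases of DNAJC13 and of PSMB2 are each listed as 2 sites of 1 run of uridines and may be 1 event. With 1 site per run, a setting chosen after seeing the data, 10 of 49 and 8 of 28 cleared the minimum, beside 28.9% of protein-coding sites. Levels of 20% or more were reached by 13 chaperone sites (26%) and 6 proteasome sites (20.7%), against 21.3% of protein-coding sites. Many sites rested on few reads. Exactly 3 deletion reads, the fewest that any listed site has, stood behind 25 of the 50 chaperone and 13 of the 29 proteasome sites, beside 37.4% of protein-coding sites. The authors' deposited table gives a p-value of 0 at all 79, as it does at 99.3% of protein-coding sites.

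High levels went with low coverage. All 19 member sites at 20% or more had fewer than 30 reads, as had 1962 of the 2254 protein-coding sites at such levels. The 10 chaperone sites with at least 60 reads had levels of 5.0 to 9.8% with a median of 6.15%. The 7 proteasome sites at that depth had 5.1 to 9.3% with a median of 6.8%. All protein-coding sites at that depth had a median of 6.6%, and those under 30 reads one of 18.8%, beside 20% for chaperone and 18.8% for proteasome sites. At 15 reads a site needs 3 deletions and hence 20% to be listed, so low levels could not appear there.

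**Figure D3:**
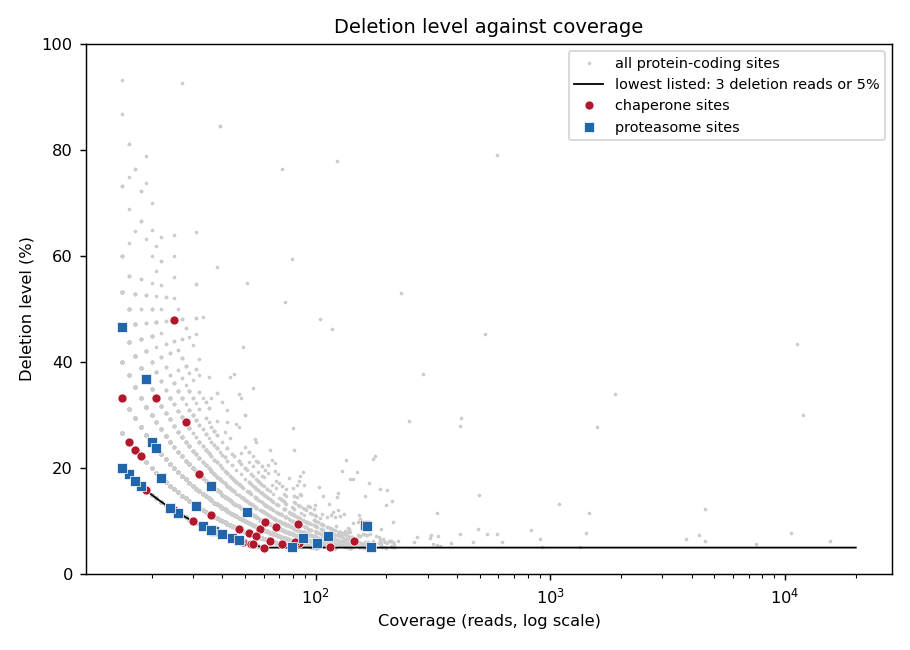
Deletion level in percent against coverage in reads (log scale) for chaperone sites (red circles), proteasome sites (blue squares) and all protein-coding sites (grey). The black line is the lowest level that could be listed, from 3 deletion reads or 5%, and many members lie on it; no member at 60 or more reads is above 9.8%.

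Of the chaperone sites, 25 were intronic (50%, interval 35.5 to 64.5%), 11 exonic, 7 in 3′UTRs, 4 annotated as promoter, 2 near transcript ends and 1 intergenic. Of the proteasome sites, 20 were intronic (69%, interval 49.2 to 84.7%), 5 exonic, 2 annotated as promoter and 2 near a transcript end, with none in a 3′UTR. Over all protein-coding sites 56% were intronic and 15.1% lay in 3′UTRs. The intervals of the 2 families overlap and both include the share of all protein-coding sites, which is no test. Intervals of a share of sites treat the sites as independent, although some share a gene or a run of uridines. Intronic sites had fewer reads: the median was 25 reads at chaperone introns against 47 at chaperone exons, with median levels of 15.8% and 8.8%. In proteasome genes it was 24 against 88 reads, and 14.8% against 7.1%. All protein-coding sites had 14.3% in introns and 9.2% in exons, at 29 and 46 reads.

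Among the genes that RefSeq annotates as protein-coding, a site was listed in 35 of 85 chaperone genes (41.2%, interval 30.6 to 52.4%). For proteasome genes it was 18 of 50 (36%, interval 22.9 to 50.8%). The 85 include IFT25, which lacks the prefix in RefSeq and entered through its synonym HSPB11 because it held a site. By direct symbol match the share was 40.5% of 84 chaperone genes. Over all 20056 RefSeq protein-coding genes the share was 25.7%. Members with a site were longer than those without, with median lengths of 29406 against 16570 bases for chaperones and 36231 against 9643 bases for proteasome genes, as over all genes (52157 against 17687). RNA abundance, which sets the coverage, was not measured here. By role, 14 of 29 genes of the C class of J proteins and 6 of 12 chaperonin genes had a site, while 1 of 7 genes with the PSMC prefix, among them PSMC3IP, which is no proteasome subunit, and 3 of 11 beta subunits did. Among the genes with none were HSPA8, HSPA1A, HSP90AB1, HSPE1, DNAJB1, CCT4, CCT8, PSMB5 and PSMC1 to PSMC5. An unlisted gene may have had too few reads, and the list does not show that it lacks the modification.

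**Figure D4:**
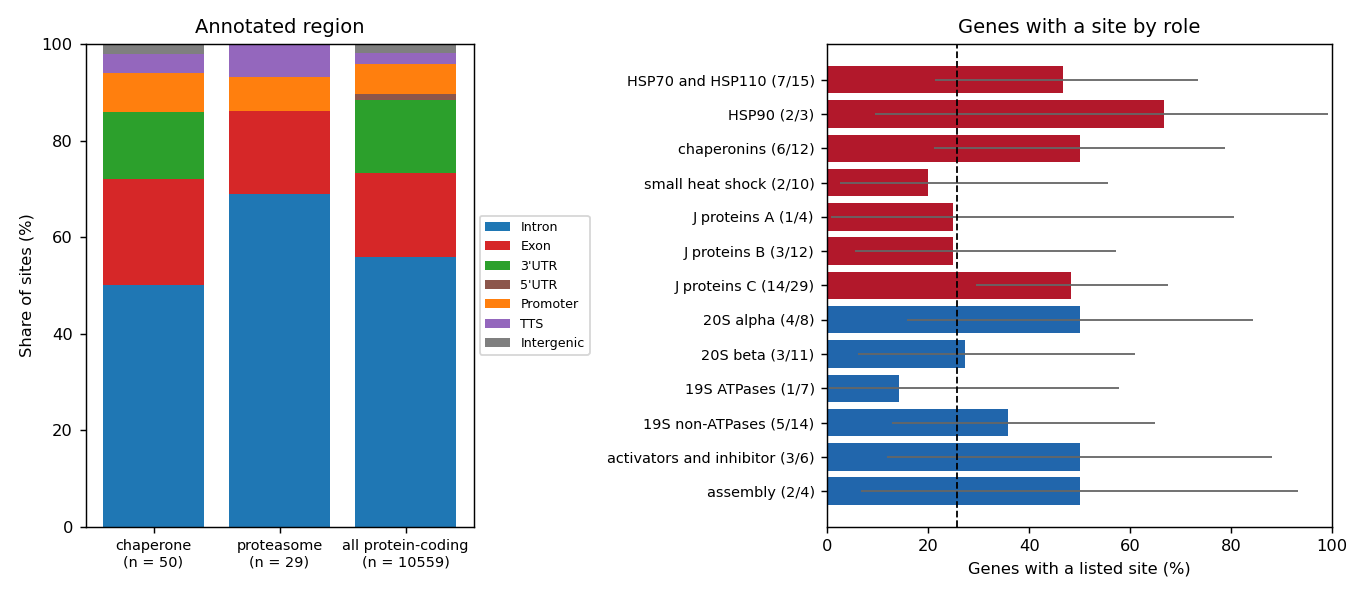
Left, share of sites in percent by annotated region for chaperone, proteasome and all protein-coding sites. Right, share of RefSeq genes of each role with at least 1 listed site, with 95% Clopper-Pearson intervals as lines and the 25.7% of all protein-coding genes as a dashed line, which most of the intervals include.

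Several chaperone sites lay on the strand opposite to their gene. The strand of the gene was known from RefSeq for 71 member sites, and 8 of 45 chaperone sites were antisense (17.8%, interval 8.00 to 32.1%), beside 5.85% of all protein-coding sites. Of 26 proteasome sites 1 was antisense (3.85%). Most of them were exonic: 6 of 10 chaperone exon sites were antisense (60%, interval 26.2 to 87.8%), against 8.71% of exonic protein-coding sites, while in introns it was 1 of 24, against 4.14%. They belonged to HSPA1B, HSPA5, HSPD1, DNAJA1 and CCT2, with CCT5 in an intron and HSP90AA1 at a site annotated as promoter. No other RefSeq gene covered any of the 9 antisense member sites. They rested on 3 to 5 deletion reads in 15 to 64 covering reads, with levels of 5.0 to 33.3%, and the interval of 1 of them, in HSPA5, cleared the listing minimum. No label says whether the library preparation keeps the strand of each read.

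The contexts of the exonic antisense sites are shown on the strand of the site. The gene's own RNA has an adenosine, not a uridine, at each of these positions.
HSPA5, chr9:125237036-125237046, plus strand: accatTcacat
HSPD1, chr2:197487965-197487975, plus strand: atcctTcaaca
HSPA1B, chr6:31828232-31828242, minus strand: cgtcgTtgatc
DNAJA1, chr9:33026556-33026566, minus strand: tccTATAAgcc
CCT2, chr12:69597213-69597223, minus strand: ctcgaTaagtt
CCT2, chr12:69597240-69597250, minus strand: gagttTgtctt

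**Figure D5:**
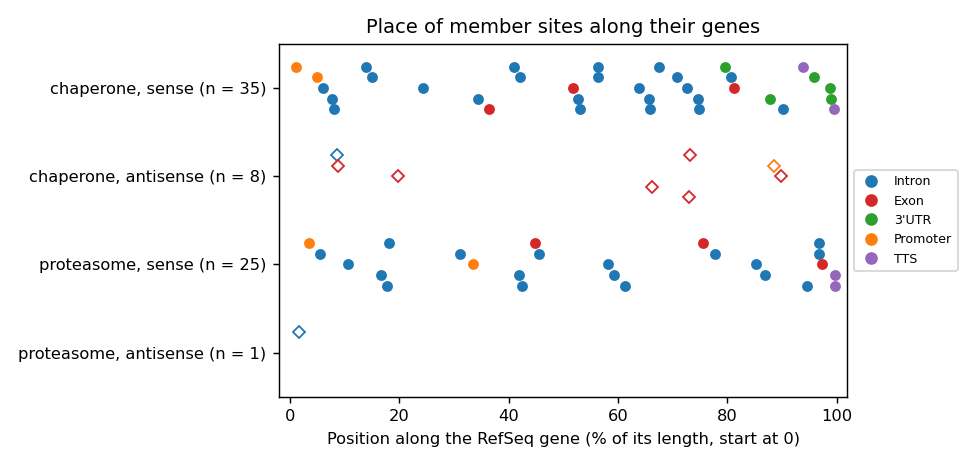
Position of each member site along its RefSeq gene, in percent of the gene's length from its start, for the 69 sites of known gene strand that lie inside the gene. Filled circles are sites on the strand of the gene and open diamonds opposite ones; the sites are spread over the whole length, and 6 of the 8 chaperone diamonds are exonic.

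Along the gene, sites on the gene's strand were spread widely. Of 35 chaperone sites, 7 lay in the first 20% of the gene's length (20%) and 9 in the last 20% (25.7%). Of 25 proteasome sites it was 6 (24%) and 8 (32%). Over all protein-coding sites on the gene's strand it was 20.3% and 29.5%. PSMA4 was the 1 member with a site inside a RefSeq promoter window, which runs from 250 bases before to 50 after a transcript start. RefSeq gives 3 such windows for PSMA4, and this one belongs to a start 381 bases inside the gene, with the site at base 40 from it. The end of that window, credited to RefSeq on GRCh38.p14, is shown with the deposited context in capitals, and matches it letter for letter.
PSMA4, chr15:78540806-78540835, plus strand: gttggggtggcttcCGTCCTCAGGAgttcg

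Motifs of 3 pseudouridine synthases were searched in each context, with the listed uridine in the modified place. They are TNTAA or TNTAG for PUS7, the same with A, C or T first and A or G second for PUS1, and GTTCNA, as in the T loop of tRNA, for TRUB1. A context that meets both of the first definitions was counted as shared. PUS1 and PUS7 are absent in the knockout and TRUB1 is not. Of the chaperone sites 9 held a motif (18%), and of the proteasome sites 1 (3.45%), beside 7.82% of protein-coding sites. In the chaperones 3 were of PUS7, 3 of PUS1, 2 of the shared form and 1 of TRUB1. These motifs stood in 3.24%, 2.39%, 1.68% and 0.521% of protein-coding sites. At 2 of the PUS7 sites, in DNAJC24 and CCT6A, the motif is part of the letters TTTTAG. Those letters stood in that place at 4% of chaperone sites, beside 0.606% of protein-coding sites. Whether they are a 3′ splice site was not tested.

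The motif-bearing contexts are shown because they tie single sites to the letters that each enzyme is known to prefer. Those of PSMD14, DNAJC24 and DNAJA1 stand above.
CCT6A, PUS7, chr7:56062675-56062685, plus strand: cctTTTAGgtg
CCT3, PUS7, chr1:156317006-156317016, minus strand: tccTCTAGtcc
CCT2, PUS1, chr12:69595751-69595761, plus strand: tatCGTAAggt
HSPA4L, PUS1, chr4:127782476-127782486, plus strand: agcAATAGccc
DNAJC21, PUS1, chr5:34948946-34948956, plus strand: agtAATAGagg
CCT2, shared, chr12:69589369-69589379, plus strand: tcaTATAGctt
DNAJB5, TRUB1, chr9:34997181-34997191, plus strand: tgaGTTCAAag

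Levels at these sites ran from 5.9% in HSPA4L to 36.8% in PSMD14. Above the listing minimum stood PSMD14 and DNAJC24 with the PUS7 motif and the 25% site of CCT2 with the PUS1 motif. The other motif sites, DNAJC21 at 10.0%, CCT6A at 9.5%, DNAJB5 at 8.8%, DNAJA1 at 8.6%, CCT2 at 8.5% and CCT3 at 6.8%, did not clear it. The highest member sites, in HSPA9 and PSMA2, held none of the motifs, which says only that these letters are absent from their windows.

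Where a deletion falls in a run of uridines, its place is a matter of alignment. A run of at least 2 was found at 33 of 50 chaperone sites (66%) and 17 of 29 proteasome sites (58.6%), beside 59% of protein-coding sites. The listed base was the one of highest genome coordinate in 46 of these 50 (92%), as in 86.4% of such protein-coding sites. On the minus strand that is the first uridine of the run, and the TRUB1 motif, whose target is the second, is then missed. PSME3IP1 is such a case, with the letters of the motif in capitals.
PSME3IP1, chr16:57174854-57174864, minus strand: tgaaGTTCAAa
With any uridine of the run counted, PSME3IP1 joined DNAJB5 with a TRUB1 motif and an intronic site of HSPB11 gained that of PUS7. The totals were 10 chaperone and 2 proteasome sites, 20% and 6.9%, beside 11% of protein-coding sites.

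The letters of a 5′ splice site, GTAAG, stood at the listed uridine in 2 chaperone sites, both intronic, in a search chosen after the contexts had been seen and made on the strand of the site. They were the 33.3% site of DNAJB14 and the 25% site of CCT2, where the letters overlap the PUS1 motif. GTAAG in that place was found in 0.694% of intronic protein-coding sites, and GTGAG, in 0.643%, was found in no member. No exon boundaries were used here, so whether these letters are used splice sites was not tested.
DNAJB14, chr4:99925970-99925980, minus strand: gatgGTAAGaa
CCT2, chr12:69595751-69595761, plus strand: tatcGTAAGgt

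At least 8 of the 10 flanking bases were pyrimidines at 5 chaperone sites (10%) and 5 proteasome sites (17.2%), against 18.2% of protein-coding sites. Contexts listed more than once were found at 4 chaperone (8%) and 3 proteasome sites (10.3%), beside 9.94% of protein-coding sites. The most repeated were tracts of uridine in PSMG2 (12 listings), DNAJC10 (11 listings) and PSMA5 (9 listings). HSPH1 shared its intronic context with ESCO1, DNAJB4 with TTLL3, HSPB11 with AAK1 and PSMB2 with YIPF5. A shared 11-base context does not show that the surrounding sequence is shared, and whether reads could be placed elsewhere was not tested. No member site lay in a small RNA gene annotated by RefSeq.

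Partners of both families were counted in 5 lists, to be read beside the 25.7% of all protein-coding genes with a site and the median level of 12%. Of 17 proteasome partners 10 had a site (58.8%), with 24 sites at a median of 12.95%. RAD23B, which carries ubiquitin-tagged protein to the proteasome, had an intronic site at 52.9% (9 of 17 reads; 27.8 to 77.02%), and further sites of 26.1% and 25%. AKIRIN2, needed for import of proteasomes into the nucleus, had 26.7% (4 of 15 reads) at a site annotated as intergenic. Of 19 cochaperones 8 had a site (42.1%), led by TTC4 with 23.5% (4 of 17 reads) and UNC45A, a myosin chaperone, with 13.9% at neighbouring bases and 11.1%. Of 11 chaperonin partners 3 had one (27.3%), led by PFDN2, a prefoldin subunit, with 47.4% (9 of 19 reads, interval 24.4 to 71.1%) and 19.2% in introns, and URI1 with 9.1% at each of 2 sites. Of 15 organelle chaperones 5 had one (33.3%). SIL1, an exchange factor for HSPA5, had 34.6% (9 of 26 reads) and 33.3% (10 of 30 reads, interval 17.3 to 52.8%) in introns, TRAP1, the mitochondrial HSP90, 25.8% (8 of 31 reads) and CLPB 10.3%.

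Of 8 regulators of the stress responses 3 had a site (37.5%). ATF6, a transcription factor of the unfolded protein response, had an intronic site at 47.6% (10 of 21 reads; 25.7 to 70.2%), in a context with the TRUB1 motif, and 8.6% at a second intronic site with the PUS7 motif. HSF2, a heat shock transcription factor, had 8.5% at a site annotated as promoter (10 of 118 reads), and HSBP1, a small protein that binds heat shock factor, 8.2% in its 3′UTR (6 of 73 reads). HSF1, the main heat shock factor, had none listed.
ATF6, TRUB1, chr1:161952205-161952215, plus strand: cagGTTCTAgc
ATF6, PUS7, chr1:161931544-161931554, plus strand: gttTTTAGtac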

How the data were processed

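The analysis used 1 deposited table of 13398 sites of the HEK293T map, labelled as pre-mRNA. Coordinates are on hg38, the build in the submitters' processing notes. The sources used here name no aligner, no caller and not the libraries that each value pools. The authors deposited the deletion level as a fraction, printed here as a percent, the coverage as a read count, and a p-value and FDR per site, per the file headers. Level times coverage, rounded, gave the deletion reads. Contexts, strands, regions and symbols are printed as deposited. Of the 69 sites inside RefSeq promoter windows, all matched the RefSeq sequence on their strand.

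Gene strand, extent and length came from RefSeq tables of GRCh38.p14, with 1 gene (HSPB11) matched through a synonym and the strand missing for 8 member sites in 7 genes. Clopper-Pearson intervals were computed with scipy 1.17.1 in Python 3.11.15, and medians have exact order-statistic intervals. Scripts were tested on simulated data. No test between groups was possible. Named sites follow a rule by role: the highest levels, the most deletion reads, genes with 3 or more sites, motif sites and repeated contexts. Members and lists were chosen with earlier results of these data known. Alternatives were coverage of at least 30 or 60, at least 5 deletion reads, Wilson or 99% intervals, gene matching, the place in the run, repeated contexts, non-family genes and, chosen after seeing the data, omission of antisense sites and 1 site per run of uridines.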

Additional observations from a re-analysis of the deposited data

How the results depend on the processing

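Depth moved the results most. With coverage of at least 30 the median level was 6.8% over chaperone and 7.8% over proteasome sites, and the intronic share of chaperone sites 34.5%. With coverage of at least 60 the medians were 6.15% and 6.8%, and the intronic shares 10% and 0% (0 of 7 proteasome sites). Over all protein-coding sites at that depth the median was 6.6% and the intronic share 32.4%, beside 56% at any depth. With at least 5 deletion reads, 16.5% of chaperone and 22% of proteasome genes kept a site, and outside introns 25.9% and 16% had one. The shares of all RefSeq protein-coding genes under these 2 filters are not given here. The 25.7% above is without a filter and is not their counterpart. Intervals above the listing minimum numbered 19 chaperone and 15 proteasome sites by Wilson's method, and 7 and 5 at a confidence of 99%. Any uridine of the run gave 2 proteasome motif sites in place of 1. The other alternatives, including omission of antisense sites and 1 site per run of uridines, stayed within the interval or within 1.5 times of the count. No paired analysis was possible because the table holds no value per library. Median coverage of 34.5 and 33 reads limits single levels to wide intervals.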

Other observations

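Sites assigned to copies of these genes were listed as well. The table holds 17 sites under 13 symbols that have one of the prefixes but are not protein-coding, at levels of 5.2 to 60% with a median of 10.7%. Pseudogene symbols took 16 of them, of which 8 were annotated as exon and 3 as intergenic. They are named here after their values were seen. HSP90 pseudogenes made up 9 of the 17 sites, under 5 symbols. HSP90AB2P took 4 of these, 2 exonic and 2 intergenic. HSP90AA5P had 50.0% (10 of 20 reads, interval 27.2 to 72.8%) and HSP90AB2P 10.3% at its deepest site (14 of 136 reads, interval 5.74 to 16.7%), while HSP90AB1 itself had no listed site. HSPA8P8, a processed pseudogene of HSPA8, had 36.0% with 27 of 75 reads (interval 25.2 to 47.9%), more deletion reads than any member site, and HSPA8 had none listed. Reads of a parent gene and of its pseudogene can be placed at either locus, and the share of such reads was not measured here.

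DNAJC3-DT, the long non-coding RNA divergent to DNAJC3, had 60% in an exon (9 of 15 reads, interval 32.3 to 83.7%) with the PUS7 motif, above all 79 member sites. DNAJC3, a J protein of the endoplasmic reticulum, had no site of its own.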
